A study of Homo sapiens
Mus musculus and Mus musculus and Homo sapiens with 16 samples.

Results

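A set of 10 human genes was followed that had been seen to shift when REC-1 cells were moved from monoculture to coculture with stroma, and the question asked of each was how far its shift depended on adhesion. The 10 genes, of 58051 in the human count table, were EMILIN2, CABLES1, PLAC8, HMCES, CHI3L2, LAPTM5, ELK3, TMEM132B, IPCEF1 and CYP4F29P. They had been chosen on the same libraries, from the comparisons of each coculture fraction with monoculture, so their differences from monoculture are given as descriptions, with fold changes, errors and counts of calls from the fit of all genes, from which nothing is read about the members. Adherent and suspended cells were then compared with each other, which shares libraries with the choosing comparisons, and the mouse genes of the same names were compared in the stroma, which does not share human counts with them.

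REC-1 is a human mantle cell lymphoma (MCL) line, and MS-5 is a stromal line from mouse bone marrow. RNA-seq was done on 4 libraries each of REC-1 cells cultured alone (Sep), of the REC-1 fraction that stayed in suspension over MS-5 (Susp), of the REC-1 fraction attached to MS-5 (Adh) and of MS-5 cells alone. Coculture lasted 24 h, and the labels name no drug or genetic change in any group. The labels give αMEM as the medium of both mono- and cocultures, whereas the study's methods name RPMI for maintaining the lymphoma lines, so whether Sep and coculture libraries differed in medium was not settled here. Adherent REC-1 cells were lysed together with the stroma and their reads were told apart from mouse reads by computer, each group is 1 cell line, and the stroma is of another species than the lymphoma. The labels describe the suspended fraction as holding both lines too, and its mouse counts were not analysed here. The labels number the replicates without naming separate cultures, and the study's legends describe independent experiments.

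The 10 genes belong to no single pathway. EMILIN2 encodes a secreted glycoprotein of the elastin microfibril interface, PLAC8 a small cysteine-rich protein, and CHI3L2 a secreted chitinase-like lectin that lacks chitinase activity. LAPTM5 is a lysosomal membrane protein of blood cells that lowers surface levels of B and T cell antigen receptors, CABLES1 links cyclin-dependent kinases to tyrosine kinases, and ELK3 is an ETS factor of the ternary complex group that binds DNA with the serum response factor. HMCES covers abasic sites in single-stranded DNA, IPCEF1 binds cytohesins, the exchange factors for ARF GTPases, TMEM132B is a single-pass membrane protein, and CYP4F29P is a pseudogene related to the CYP4F cytochromes.

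Start regions are shown for ELK3, the member with the largest fall in suspended cells, and for PLAC8 and CHI3L2, the members with a motif match, one of them higher and one lower in coculture. Each sequence is the 300 bases before the start of the canonical transcript in GENCODE release 44, 5′ to 3′ on the strand of the gene, from GRCh38, and capitals mark a motif match. The window of ELK3 is chr12:96194075-96194374 (+), that of PLAC8 is chr4:83114730-83115029 (-) and that of CHI3L2 is chr1:111227413-111227712 (+).
ELK3: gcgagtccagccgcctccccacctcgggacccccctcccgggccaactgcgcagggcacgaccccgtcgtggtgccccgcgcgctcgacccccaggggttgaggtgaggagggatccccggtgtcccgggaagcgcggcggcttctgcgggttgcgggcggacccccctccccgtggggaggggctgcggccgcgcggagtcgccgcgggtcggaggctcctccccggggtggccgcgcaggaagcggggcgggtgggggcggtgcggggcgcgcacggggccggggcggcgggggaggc
PLAC8: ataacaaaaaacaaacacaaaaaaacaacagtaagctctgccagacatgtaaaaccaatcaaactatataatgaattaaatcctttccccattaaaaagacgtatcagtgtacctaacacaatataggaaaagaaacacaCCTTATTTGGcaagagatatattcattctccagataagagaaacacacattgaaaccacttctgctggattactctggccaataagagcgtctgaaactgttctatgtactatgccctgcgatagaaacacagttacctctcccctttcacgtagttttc
CHI3L2: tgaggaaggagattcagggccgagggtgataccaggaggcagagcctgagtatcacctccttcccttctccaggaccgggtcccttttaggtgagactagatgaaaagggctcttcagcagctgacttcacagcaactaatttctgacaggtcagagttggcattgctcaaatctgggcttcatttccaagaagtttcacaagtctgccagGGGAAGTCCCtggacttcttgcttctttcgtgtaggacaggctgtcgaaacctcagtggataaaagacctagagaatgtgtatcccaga

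The motifs below were searched on both strands of the windows of the 9 protein-coding members. The extended ETS sequence CCGGAA was in 0 of 9 windows, against 21.1% of 20044 windows of protein-coding genes. Only this form was searched, and the shorter GGAA core, which the printed windows do hold, was not counted. The NF-kB consensus was in 1 of 9, in CHI3L2 at base -89 from the start site, and in 6.93% of all windows. The CArG box, which the serum response factor binds, was in 1 of 9, in PLAC8 at base -160, and in 1.40% of all windows. These motifs did not overlap each other in the printed windows. GC content of the printed windows ran from 36.0% in PLAC8 to 81.3% in ELK3. Matches of letters are descriptions and do not show binding.

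Between 7758979 and 21467832 human counts were made per REC-1 library, with the Susp libraries the deepest (15000927 to 21467832), the Sep libraries between 9325412 and 12597891, and the Adh libraries from 7758979 to 13241751. All 7 B-cell and MCL markers were at 1 CPM or more in each group, with a summed level of 4833 to 6292 CPM. The 12 stromal markers summed to 5.59 to 7.22 CPM in Sep, 4.69 to 6.77 in Susp and 5.68 to 7.45 in Adh. Within each group 5 of the 12 were at 0 in all of its libraries, but not the same 5. Only THY1 and CXCL12 were at 0 throughout the REC-1 libraries. The 3 T cell markers summed to 2.34 to 7.61 CPM and the 3 myeloid markers to 0.615 to 2.20 CPM. Counts were even more often than odd, in 63.6% to 77.2% of human genes with 10 to 49 counts, whereas counted fragments would be even and odd alike. The part of this excess in the results was not tested beyond halving the counts, which left 1 member called in Adh against Susp, 9 in Susp against Sep and 8 in Adh against Sep. In bulk libraries fewer cells carrying a transcript and less transcript per cell cannot be told apart.

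Levels are given as CPM, counts scaled to the size of the library with TMM factors. The edgeR quasi-likelihood test covered 12861 genes, all 10 members among them, and a call required at least a 1.5-fold difference together with a Benjamini-Hochberg adjusted p no higher than 0.05. In Susp against Sep 9 of 10 members were called, 4 higher and 5 lower, where 0.731% of all genes were (0.428% higher and 0.303% lower). In Adh against Sep 8 of 10 were called, 3 higher and 5 lower, where 2.4% of all genes were (0.583% higher and 1.82% lower). Both counts follow from how the genes were chosen. Both comparisons called 7 of 10 members, while the libraries of all 10 lay apart from Sep in either comparison (11.3% of all genes in Susp and 15.7% in Adh). CYP4F29P was not called in Susp, and PLAC8 and IPCEF1 were not called in Adh, PLAC8 because its fold of 1.48 was just under the minimum. DESeq2 called CYP4F29P in Susp (-0.66 on the log2 scale) and IPCEF1 in Adh (-0.77), so these missing calls depend on the method. CHI3L2 in Susp, at 1.64-fold lower, was the called member nearest the minimum in that comparison, and CYP4F29P, 1.57-fold lower there, missed the call on its p. In Adh, CHI3L2 and IPCEF1 were both 1.71-fold lower, and IPCEF1 missed the call on its p.

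**Figure D1:**
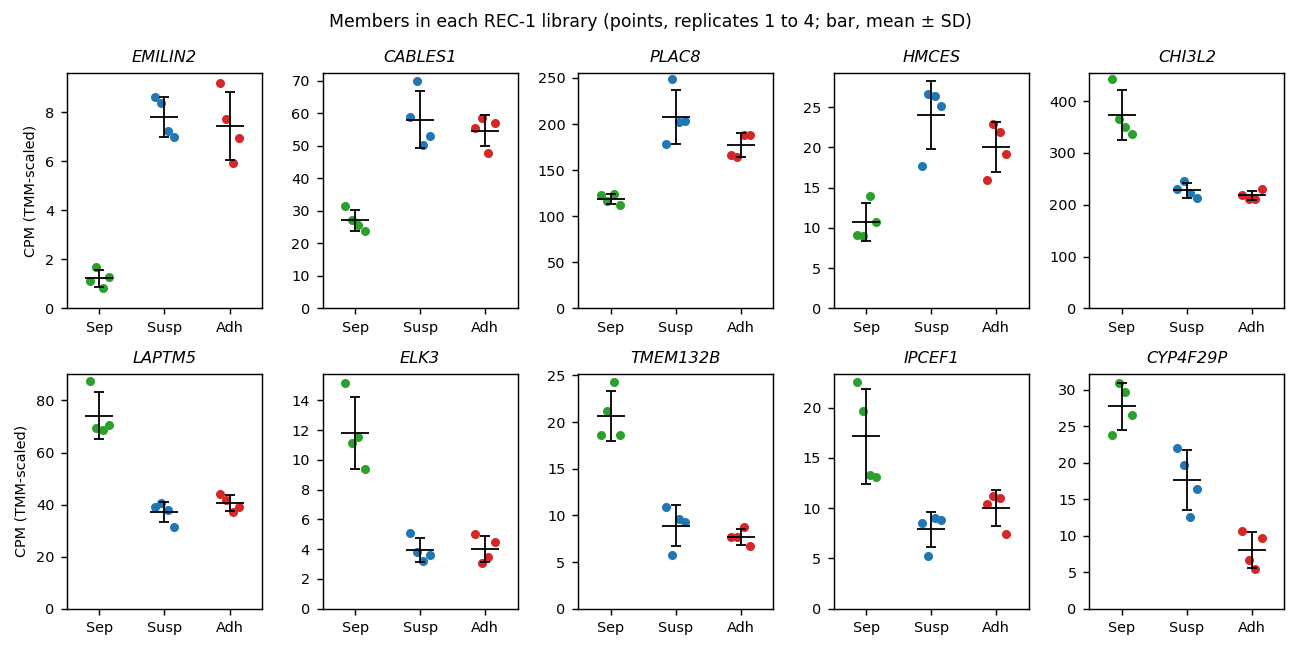
CPM (TMM-scaled, linear axis from 0) of the 10 genes in each REC-1 library, with Sep in green, Susp in blue and Adh in red. Points are replicates 1 to 4 from left to right and bars the mean ± SD. In all 10 panels the Sep points lie apart from both coculture groups, and only for CYP4F29P do the Adh points lie apart from the Susp points.

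EMILIN2 showed the largest shift. It lies on chromosome 18 at 2847006 to 2916003 (+) of GRCh38 and was measured over the whole gene, exons joined. In Sep cells EMILIN2 was at 1.10, 1.67, 0.837 and 1.28 CPM in replicates 1 to 4, which are 14, 20, 8 and 16 counts. Susp cells had 8.63, 8.36, 7.25 and 6.98 CPM, and Adh cells 9.17, 7.70, 5.91 and 6.93 CPM. Every coculture library lay above every Sep library, and the Adh libraries spanned the whole range of the Susp libraries. The means rose from 1.22 ± 0.351 CPM (SD, n = 4) in Sep to 7.81 ± 0.810 in Susp and 7.43 ± 1.37 in Adh, a fitted 6.28-fold (log2 2.65 ± 0.23, SE) and 6.03-fold (2.59 ± 0.24). Adh differed from Susp by a log2 fold change of -0.06 ± 0.19 (95% interval -0.46 to 0.34, edgeR adjusted p = 0.946). In linear terms the interval runs from 0.727-fold to 1.27-fold. All 12 EMILIN2 counts were even.

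The stroma transcribed the mouse gene at a far higher level, so the separation of reads bears on EMILIN2 in the mixed libraries. Mouse Emilin2 had 4493 to 5730 counts in the Adh libraries, and the human EMILIN2 counts there were 0.899% to 2.13% of that. For the 9 stromal markers with at least 1000 mouse counts in the Adh libraries (36437 to 248373 counts each over the 4), the human counts were at most 0.107% of the mouse counts, with a median of 0.0047%. That highest value was FN1, which had 175 human counts in Adh and 200 in Sep, where no stroma was cultured. The next highest was LOX at 0.0072%. The EMILIN2 level was of like size in the suspended fraction, whose mouse counts were not analysed. The part of misassigned mouse reads in these levels was not tested.

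CABLES1, on chromosome 18 at 23134564 to 23260470 (+), rose in coculture. Its levels in Sep were 31.6, 27.3, 25.7 and 23.7 CPM. They were 58.7, 70.0, 50.1 and 53.1 CPM in Susp and 55.4, 58.4, 47.9 and 57.0 CPM in Adh. Lowest of the coculture libraries was Adh replicate 3, still above the highest Sep library. The log2 fold change was 1.10 ± 0.12 in Susp and 1.01 ± 0.12 in Adh, and Adh against Susp gave -0.08 ± 0.12 (interval -0.34 to 0.17, adjusted p = 0.732 by edgeR). A lncRNA on the opposite strand shares 326 bases, 4.74% of the exonic bases of CABLES1, and the library kit does not mark strand.

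PLAC8 spans 83090048 to 83137075 (-) on chromosome 4. The start region printed above belongs to its canonical transcript, which begins inside that span. PLAC8 was among the more abundant members. It had 123, 117, 124 and 113 CPM in Sep, 178, 248, 202 and 203 CPM in Susp and 167, 165, 188 and 188 CPM in Adh. In all, 3 of the 4 Susp libraries were above all Adh libraries, and Susp replicate 1 lay among them. PLAC8 rose by 0.80 ± 0.10 in Susp on the log2 scale and stood 0.57 ± 0.10 above Sep in Adh. Between Adh and Susp the log2 fold change was -0.23 ± 0.10 with an interval of -0.44 to -0.02, which leaves out 0 before the adjustment over all genes, and the adjusted p was 0.235 (edgeR).

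HMCES, on chromosome 3 at 129278828 to 129306186 (+), had 9.13, 9.04, 14.0 and 10.7 CPM in Sep. Susp libraries had 17.7, 26.7, 26.4 and 25.2 CPM and Adh libraries 16.0, 22.9, 21.97 and 19.2 CPM. The first replicate was the lowest in both coculture groups, and no coculture library fell to the highest Sep level. The log2 fold change of HMCES was 1.17 ± 0.17 in Susp and 0.91 ± 0.18 in Adh. Adh against Susp differed by -0.27 ± 0.17 (interval -0.62 to 0.09, edgeR adjusted p = 0.409).

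Among the genes that were lower in coculture, CHI3L2 was the most abundant. It spans 111200771 to 111243440 (+) on chromosome 1, and the start region printed above belongs to its canonical transcript, which begins inside that span. CHI3L2 was at 442, 365, 349.8 and 336 CPM in Sep, at 230.4, 246, 222 and 213 CPM in Susp and at 219, 212, 212 and 229.9 CPM in Adh. The lowest Sep library (336) lay above the highest coculture library (246), and the Adh libraries were the most uniform of any member, with an SD of 3.90% of the mean. It fell by 0.71 ± 0.09 in Susp and by 0.78 ± 0.09 in Adh on the log2 scale. The difference between Adh and Susp was -0.06 ± 0.09 with the interval -0.26 to 0.13 (adjusted p = 0.732, edgeR).

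LAPTM5, at 30732469 to 30757774 (-) on chromosome 1, had 87.5, 69.6, 68.8 and 70.7 CPM in Sep. Its levels were 38.9, 40.4, 38.0 and 31.6 CPM in Susp and 44.2, 41.6, 37.0 and 39.3 CPM in Adh. Sep replicate 1 stood above the other Sep libraries, which were all above every coculture library. LAPTM5 was 1.99-fold lower in Susp (log2 -0.99 ± 0.11) and 1.83-fold lower in Adh (-0.87 ± 0.11), and Adh against Susp gave 0.12 ± 0.11 (interval -0.11 to 0.36, adjusted p = 0.556 by edgeR). A lncRNA on the opposite strand shares 623 bases, 19.3% of the exonic bases of LAPTM5, and without strand their reads there cannot be told apart.

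ELK3, the ETS factor, showed the largest fall in suspended cells. It lies on chromosome 12 at 96194375 to 96269824 (+). It was at 15.2, 11.1, 11.5 and 9.41 CPM in Sep, at 5.11, 3.81, 3.19 and 3.63 CPM in Susp and at 5.04, 3.08, 3.47 and 4.49 CPM in Adh. The Adh and Susp libraries were interleaved. ELK3 was 3.01-fold lower in Susp (log2 -1.59 ± 0.21) and 2.92-fold lower in Adh (-1.54 ± 0.22). Adh and Susp differed by 0.05 ± 0.23, with an interval of -0.43 to 0.52 and an edgeR adjusted p of 0.926. As with EMILIN2, the stroma held far more of the mouse transcript, and human ELK3 counts (27 to 67 per Adh library) were 0.409% to 0.886% of the mouse Elk3 counts in the same libraries. The part of misassigned reads in these low counts was not tested.

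TMEM132B, on chromosome 12 at 125186386 to 125662377 (+), had 18.6, 21.2, 24.3 and 18.7 CPM in Sep, 10.9, 5.78, 9.62 and 9.27 CPM in Susp and 7.67, 7.70, 8.74 and 6.67 CPM in Adh. Susp replicate 2 was the lowest of all 12 libraries, below the Adh group. The log2 fold change of TMEM132B was -1.21 ± 0.17 in Susp and -1.42 ± 0.18 in Adh. Adh differed from Susp by -0.21 ± 0.18 (interval -0.60 to 0.18, edgeR adjusted p = 0.554).

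IPCEF1, at 154154496 to 154356803 (-) on chromosome 6, was the member with the least even Sep libraries of those that fell. Its Sep levels were 22.5, 19.7, 13.3 and 13.1 CPM, so replicates 1 and 2 were above the other two. In coculture it had 8.56, 5.29, 8.99 and 8.80 CPM in Susp and 10.4, 11.2, 11.0 and 7.44 CPM in Adh. In all, 3 of the 4 Adh libraries were above every Susp library. IPCEF1 stood at -1.12 ± 0.21 in Susp and -0.77 ± 0.21 in Adh on the log2 scale, and Adh against Susp was 0.35 ± 0.22 (interval -0.11 to 0.81, adjusted p = 0.402, edgeR). Its interval was the one that reached furthest from 0 among the members not called, to 1.75-fold. Without Sep replicate 1 the fall in Susp was 0.95 and without Sep replicate 2 it was 1.05, and IPCEF1 was not called in either case. The neighbouring gene CNKSR3, to which a readthrough transcript joins IPCEF1, was at 2.10 ± 0.275 CPM in Sep, 0.824 ± 0.319 in Susp and 1.20 ± 0.384 in Adh, and its log2 differences of -1.35, -0.76 and 0.59 in the 3 comparisons (Susp against Sep, Adh against Sep, Adh against Susp) did not pass the test (edgeR adjusted p = 0.0775, 0.233 and 0.403). The readthrough gene in the GENCODE annotation shares 1331 bases, 15.7% of the exonic bases of IPCEF1.

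CYP4F29P departed from the rest. This transcribed pseudogene lies on chromosome 21 at 13846759 to 13847713 (-). It was at 23.8, 30.9, 29.7 and 26.6 CPM in Sep, at 21.97, 19.7, 12.6 and 16.4 CPM in Susp and at 10.6, 6.64, 5.40 and 9.75 CPM in Adh. The groups did not overlap, with every Adh library below every Susp library and every Susp library below every Sep library. Means were 27.7 ± 3.21, 17.7 ± 4.10 and 8.10 ± 2.48 CPM (SD, n = 4). The log2 fold change from Sep was -0.65 ± 0.19 in Susp and -1.76 ± 0.21 in Adh. Adh was 2.15-fold lower than Susp (log2 -1.11 ± 0.21, interval -1.55 to -0.67, edgeR adjusted p = 0.0150), lower in 4 of 4 Adh libraries than in any Susp library. CYP4F29P was chosen partly on these Adh libraries, so this p is not free of the choice. The call was lost without Adh replicate 2 (-1.02, adjusted p = 0.0584), without Adh replicate 3 (-0.97, 0.0547) and in a model of the Adh and Susp libraries alone (-1.10, 0.0504). Only uniquely aligned reads were counted, and reads shared with related CYP4F sequences would be lost, so its counts are uncertain. In GENCODE release 44 a lncRNA of the same name covers 72.9% of its exonic bases on the same strand.

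Across the 10 members, 1 was called between Adh and Susp cells, CYP4F29P, and 0 were called higher, beside 0.778% of all genes called in either direction (0.109% higher and 0.669% lower). The libraries of Adh and Susp did not overlap for 1 of 10 members and for 11.4% of all genes. Genes chosen for shifts from Sep in both fractions will tend to differ little between the fractions. Neither count was therefore free of the choice, and neither measures how far coculture shifts in general depend on adhesion. The median log2 fold change was -0.07 over the members and -0.01 over all genes. For the 9 members not called, the log2 differences lay between -0.27 and 0.35, their 95% intervals stayed within 0.650-fold to 1.75-fold, and the adjusted p-values ran from 0.235 to 0.946. A p above the threshold does not show that the 2 fractions were alike for these genes. Expressed as a share of the log2 shift in Susp, the shift in Adh was 97.8% for EMILIN2, 97.1% for ELK3, 92.4% for CABLES1, 87.5% for LAPTM5, 109% for CHI3L2 and 117% for TMEM132B. The share was lower for HMCES (77.3%), PLAC8 (71.0%) and IPCEF1 (69.0%), and 269.5% for CYP4F29P. These shares are ratios of values that share the Sep libraries and carry no test of their own. The choice of members on both shifts favours like values in the 2 fractions.

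**Figure D2:**
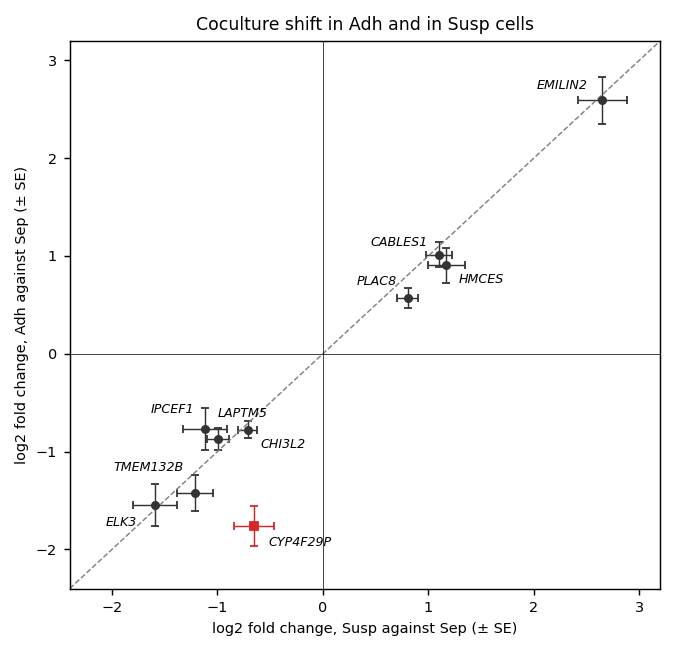
Log2 fold change from Sep of each gene in Adh (vertical) against that in Susp (horizontal), with SE bars and a dashed line where both are equal. The other 9 genes (black circles) lie close to the line from -1.59 to 2.65 on the horizontal axis, and CYP4F29P (red square) lies below it at -0.65 and -1.76. Both axes use the same Sep libraries.

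**Figure D3:**
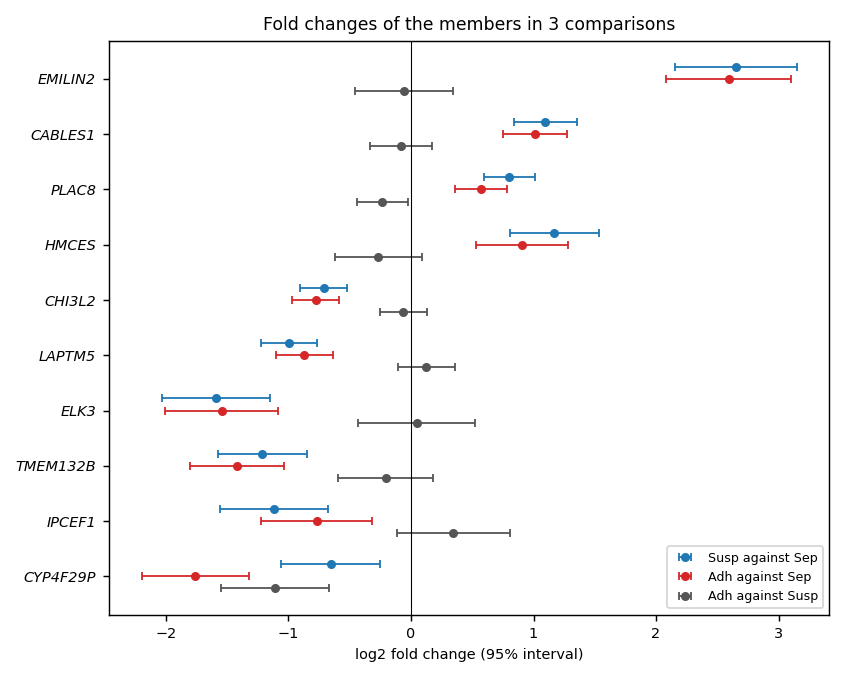
Log2 fold changes with 95% intervals for Susp against Sep (blue), Adh against Sep (red) and Adh against Susp (grey). The grey interval covers 0 for all genes but PLAC8 (-0.44 to -0.02) and CYP4F29P (-1.55 to -0.67).

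Where levels are divided by exonic length (RPKM), the order of the 9 coding members can be read. In Sep cells CHI3L2 was highest at 113 ± 14.4 RPKM, followed by PLAC8 at 31.5 ± 1.44 and LAPTM5 at 23.0 ± 2.77. CABLES1 (3.94 ± 0.486) and HMCES (3.85 ± 0.836) overlapped between libraries, as did HMCES with ELK3 (2.54 ± 0.524) and ELK3 with IPCEF1 (2.02 ± 0.555). TMEM132B was at 1.28 ± 0.166 RPKM and EMILIN2 was the lowest at 0.189 ± 0.0542. In Susp cells CHI3L2 (69.1 ± 4.33) and PLAC8 (54.9 ± 7.71) overlapped, and LAPTM5 followed at 11.5 ± 1.21. HMCES and CABLES1 again overlapped at 8.62 ± 1.52 and 8.44 ± 1.28 RPKM, and CABLES1 overlapped LAPTM5. EMILIN2, at 1.21 ± 0.125 RPKM, then had a higher mean than IPCEF1 (0.932 ± 0.207), ELK3 (0.847 ± 0.178) and TMEM132B (0.550 ± 0.135). Its libraries lay above those of IPCEF1 and TMEM132B and overlapped those of ELK3, and IPCEF1 overlapped both ELK3 and TMEM132B. In Adh cells CHI3L2 (66.2 ± 2.58), PLAC8 (46.8 ± 3.47) and LAPTM5 (12.6 ± 0.957) kept the first places without overlap. CABLES1 (7.96 ± 0.680) and HMCES (7.20 ± 1.11) overlapped in Adh too, as did IPCEF1 (1.18 ± 0.207) with EMILIN2 (1.15 ± 0.212). ELK3 stood at 0.865 ± 0.194 RPKM, overlapping both of these, and TMEM132B at 0.476 ± 0.0522 in Adh.

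**Figure D4:**
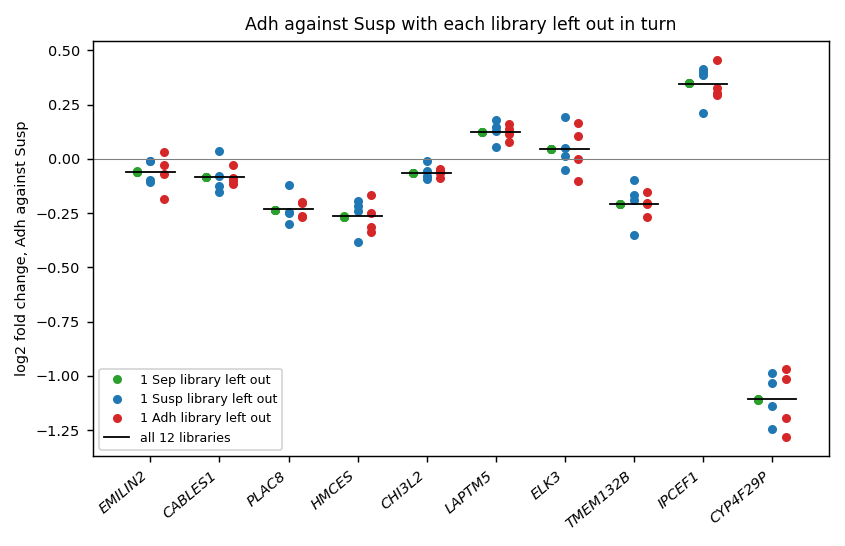
Log2 fold change of Adh against Susp for each gene when 1 library is left out, coloured by the group of that library, with a black line for all 12 libraries. CYP4F29P stays between -1.28 and -0.97, whereas EMILIN2, CABLES1 and ELK3 move across 0.

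Relatives and partners of the members, and genes linked to these, were counted from lists of 85 genes, of which 64 were tested. In Susp against Sep 0 of 64 were called (edgeR, 11 at an unadjusted p under 0.05, beside 2145 of all 12861 genes, and 0 by DESeq2). In Adh against Sep 2 of 64 were called lower and 0 higher, and in Adh against Susp 2 of 64 lower and 0 higher, beside the 1.82% and 0.669% of all genes called lower in these comparisons. In either direction 0.731% of all genes were called in Susp against Sep, 2.4% in Adh against Sep and 0.778% in Adh against Susp. At such shares a count of 0 in lists of these sizes does not show that the listed genes did not respond. The lists were not tested against all genes. Among ETS factors and the serum response factor with its coactivators, the group of ELK3, 0 of 15 were called in any of the 3 comparisons (unadjusted 3, 1 and 1 in Susp against Sep, Adh against Sep and Adh against Susp, DESeq2 0 in each). The same held for 0 of 19 genes of abasic site and base excision repair, where HMCES acts (unadjusted 1, 3 and 3, DESeq2 0 in each). It was also 0 of 9 for relatives and partners of LAPTM5 and lysosomal membrane genes (unadjusted 1, 2 and 1, DESeq2 0 in each) and 0 of 1 for the TMEM132 family (unadjusted 0 and DESeq2 0 in each). No relative of EMILIN2, PLAC8 or the CYP4F cytochromes passed the low-count filter, 0 of 4, 0 of 2 and 0 of 6.

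The 4 listed genes called in any comparison were lower in adherent cells, as were most called genes (86 of 100 in Adh against Susp and 234 of 309 in Adh against Sep). The list around CABLES1 holds its relative CABLES2 and genes linked to CDK5 or ABL, not only partners of CABLES1. CDK5RAP3, a binding protein of a CDK5 activator and 1 of 9 tested genes of that list, fell by 0.59 ± 0.11 on the log2 scale in Adh against Susp (95.7 ± 15.3 against 63.4 ± 5.56 CPM, edgeR adjusted p = 0.0142), while it was at 91.2 ± 5.86 CPM in Sep. ACAP1, a GTPase-activating protein for ARF6 and 1 of 9 tested genes of the cytohesin and ARF list, fell by 0.63 ± 0.14 in the same comparison (54.2 ± 8.20 against 35.2 ± 6.76 CPM, edgeR adjusted p = 0.0444). By DESeq2, 0 of 9 genes of the CABLES1 list and 1 of 9 genes of the cytohesin and ARF list were called between Adh and Susp. CYTH4, a cytohesin, was lower in Adh than in Sep by a log2 value of -0.59 ± 0.11 (23.8 ± 1.61 against 35.8 ± 4.05 CPM, edgeR adjusted p = 0.00457). Its difference from Susp was of like size, -0.57 ± 0.11, just under the fold minimum (edgeR adjusted p = 0.0142). OVGP1, an oviductal member of the chitinase family, was 1 of 2 tested there. It was lower in Adh than in Sep by -1.34 ± 0.35, from 1.78 ± 0.158 to 0.715 ± 0.181 CPM (edgeR adjusted p = 0.0386). Its difference from Susp (1.84 ± 0.387 CPM) was -1.38 ± 0.34 and was not called (edgeR adjusted p = 0.0625). DESeq2 called 1 of the 2 genes in Adh against Susp and 1 in Adh against Sep. OVGP1 had only 233 counts over the 12 REC-1 libraries.

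The stroma of the same dishes gave a measure that the choice of genes did not use. Mouse genes with the members' symbols were found for 8 of the 10, and the mouse counts of the 4 Adh libraries were compared with those of the 4 libraries of MS-5 alone. Of these, 4 were tested and 0 of 4 were called (edgeR, 1 at an unadjusted p under 0.05, 0 by DESeq2), where 0.205% of 12201 mouse genes were (0.041% higher and 0.164% lower). Emilin2 was at 162, 163, 149 and 150.5 CPM in MS-5 alone and at 169, 181, 147 and 143 CPM in coculture, with overlapping groups and a log2 fold change of 0.04 ± 0.07 (interval -0.12 to 0.19, edgeR adjusted p = 0.909). Elk3 was at 194, 199, 175 and 178 CPM alone and at 223, 214, 189.8 and 194 CPM in coculture, a log2 fold change of 0.14 ± 0.06 (interval 0.003 to 0.28, edgeR adjusted p = 0.433). These are the mouse counterparts of the members with the largest rise and the largest fall in suspended lymphoma cells.

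Plac8 had a mean of 32.3 ± 4.32 CPM in MS-5 alone and 32.8 ± 3.04 in coculture (log2 0.02 ± 0.10, interval -0.19 to 0.24, edgeR adjusted p = 0.964). Hmces had 25.3 ± 1.98 and 25.1 ± 3.001 CPM (log2 -0.01 ± 0.10, interval -0.22 to 0.20, edgeR adjusted p = 0.991). Human PLAC8 counts in the Adh libraries were 122% to 206% of the mouse Plac8 counts and human HMCES counts 20.1% to 28.5% of the mouse Hmces counts, both far larger shares than for EMILIN2 and ELK3. Cables1, Laptm5 and Ipcef1 had 0 counts in all 8 libraries of the stroma, where up to 3 counts would be compatible with a count of 0 in a library. Tmem132b had 6 counts in coculture replicate 1 and 0 in the other libraries.

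For each member the gene outside the set with the most similar pattern was found, by Pearson's r of log2 CPM (prior count 2) over the 12 REC-1 libraries. These points share the 3 groups and their depths, so r mostly follows the differences between groups and is a description. EMILIN2 was closest to CD22, a B-cell surface lectin (r = 0.949), CABLES1 to CXCL10, a chemokine (0.978), PLAC8 to PLP2 (0.973) and HMCES to RIMS3 (0.952). SYS1, a Golgi membrane protein, was closest to both CHI3L2 (0.947) and LAPTM5 (0.954). ELK3 was closest to LZIC (0.949), TMEM132B to PPP1R16B (0.958) and IPCEF1 to ADAT1, an adenosine deaminase of tRNA (0.947). CYP4F29P was closest to GOLGA8B, a golgin with near-identical copies (0.970), whose log2 difference from Sep was -0.25 in Susp and -0.92 in Adh. For CD22 these differences were 0.43 and 0.39, and for CXCL10 they were 1.05 and 1.02.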

How the data were processed

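Gene counts of 16 libraries were used, 4 per group. Per the labels and methods, the authors separated read pairs by species with Xenome, aligned them with STAR 2.5.1b to GRCh38 or GRCm38 (Ensembl release 87), kept uniquely aligned reads and counted fragments per gene with featureCounts (Subread 1.5.2). The deposited values are raw counts per gene, neither normalized nor filtered. Another 20 columns of the tables were not used.

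The human counts of the 12 REC-1 libraries were fitted in 1 model in edgeR 4.0.16 (R 4.3.3) with filterByExpr, TMM and the older (legacy) quasi-likelihood F-test, and comparisons were contrasts of it. Mouse counts of the 4 Adh and 4 MS-5 libraries were fitted separately. SEs and 95% intervals are Wald values from the same fits. Adjusted p-values are Benjamini-Hochberg values over all tested genes. Libraries held 7758979 to 21467832 human counts, so counting error is large for genes at a few CPM. Intervals rest on the spread between libraries of a group and do not cover a preparation difference shared by a whole group. RPKM used exon unions of GENCODE release 44, which is later than the authors' annotation, and overlaps and start regions came from it too.

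The members and lists were chosen with earlier results of these data known. Named genes were the 10 members, mouse genes of the same symbol, list genes that were called or adjoin a member, and the gene most like each member. Alternatives were a replicate block, DESeq2 1.42.0, no fold minimum, no filter on low counts, a filter of 10 counts per library, upper-quartile scaling, thinning to the depth of the smallest library, a model of Adh with Susp only and each library left out. Halving the counts, rounded up, was added after the excess of even counts was seen. The code was tested on simulated data.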

Additional observations from a re-analysis of the deposited data

Results flagged for a closer look

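Chance gives about 1 flag in 20 groups of libraries. In 5 groups 1 library stood apart from the other 3 by Dixon's 95% criterion. HMCES in Susp replicate 1 was at 17.7 CPM, below the other Susp libraries (25.2 to 26.7). LAPTM5 in Sep replicate 1 was at 87.5 CPM, above the others (68.8 to 70.7). IPCEF1 in Susp replicate 2 was at 5.29 CPM, below the others (8.56 to 8.99). Mouse Plac8 in coculture replicate 2 was at 28.3 CPM, below the others (34.0 to 34.5). Mouse Tmem132b in coculture replicate 1 was at 0.177 CPM, which is 6 counts, with the others at 0. With the others all at 0, any count above 0 meets this criterion, so the Tmem132b flag carries no information.

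The shift of CYP4F29P from Sep differed between Adh and Susp by -1.11 on the log2 scale, by the test of the difference itself in the edgeR model (adjusted p = 0.0150, range over the alternatives 2.21e-08 to 0.0584). It was lower in 4 of 4 Adh libraries than in any Susp library. These Adh libraries also took part in choosing CYP4F29P, which can enlarge the difference, so its p is not independent of the choice. The 9 other members gave no such difference at this threshold.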

How the results depend on the processing

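Directions of all 10 members from Sep held under every alternative run, in Susp and in Adh, except that EMILIN2 could not be tested with at least 10 counts in every library. The members were chosen on these comparisons and libraries, so this describes the processing and adds no support for the shifts. Between Adh and Susp 1 member was called, CYP4F29P, and the number of members called was 0 in a model of Adh and Susp alone (-1.10, adjusted p = 0.0504) and 0 to 1 over the libraries left out in turn, 0 without Adh replicate 2 or Adh replicate 3. Small differences changed sign: ELK3 to -0.034 with thinned counts and between -0.10 and 0.19 with a library left out (negative without Susp replicate 3, Adh replicate 1 or Adh replicate 4), CABLES1 between -0.15 and 0.034 (positive without Susp replicate 2) and EMILIN2 between -0.18 and 0.031 (positive without Adh replicate 3). In the stroma Hmces turned to 0.0027 with upper-quartile scaling, 0.0080 without the filter, 0.0055 with thinned and 0.0016 with halved counts, and Plac8 to -0.0087 with thinned counts. With a library left out, Hmces ran from -0.072 to 0.062, Plac8 from -0.043 to 0.096 and Emilin2 from -0.028 to 0.087. The number of genes called moved more than the members did. It was 100 for Adh against Susp, 282 by DESeq2, 341 without the filter and 51 to 165 over the libraries left out (51 without Adh replicate 1, 62 without Adh replicate 3, 66 without Susp replicate 4, 165 without Sep replicate 1). For Susp against Sep it was 94, 173 by DESeq2, 217 without the filter and 64 to 135 over the libraries left out. For Adh against Sep it was 309, 527 by DESeq2, 503 without the filter and 143 to 519 over the libraries left out (143 without Sep replicate 2, 173 without Sep replicate 4, 192 without Adh replicate 3, 203 without Adh replicate 1, 490 without Sep replicate 1, 519 without Susp replicate 2). For the stroma it was 25, 45 without the filter, 94 without a fold minimum and 8 to 36 over the libraries left out (8, 11 and 13 without MS-5 replicates 3, 4 and 2, 13 without Adh replicate 3). DESeq2 and the fit without the filter also called CYP4F29P in Susp against Sep (-0.66 and -0.65) and IPCEF1 in Adh against Sep (-0.77 and -0.78). PLAC8 was called in Adh against Sep without Sep replicate 1 (0.59), Sep replicate 3 (0.59), Adh replicate 1 (0.60) or Adh replicate 2 (0.61), and IPCEF1 without Susp replicate 2 (-0.77). Except where the filter or the number of libraries changed, the cause was not tested. Depth limits EMILIN2 in Sep (8 to 20 counts) and ELK3 in Adh (27 to 67 counts) most.

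Replicate numbers did not pair the libraries by the criterion used, since deviations from the group means had to correlate with r above 0.1 for all 4 numbers and did so for 3 in Adh against Sep, for 2 in the stroma and for 1 in each of the other comparisons. The study describes Adh and Susp cells as fractions within the cocultures, so libraries of the same number may share a coculture. This criterion cannot show that they do not, and the main fit leaves such pairing out. In Adh against Susp the block lowered the SE of HMCES from 0.168 to 0.124, without a call (log2 -0.25, edgeR adjusted p = 0.228). With the replicate block 281 genes were called in Adh against Susp, 175 in Susp against Sep, 384 in Adh against Sep and 45 in the stroma, CYP4F29P kept its call between Adh and Susp (-1.11, adjusted p = 0.00529), and CYP4F29P in Susp (-0.68) and IPCEF1 in Adh (-0.77) were also called against Sep.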
